A study of Mus musculus with 2 samples.

Results

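The autophagy machinery and its receptors were described here through 40 genes, all of them found once among the 28692 genes of the count tables and listed by symbol as parts of this pathway. They fell into 11 genes of initiation and of the lipid kinase, 7 of membrane supply, 15 of the lipidation of Atg8 proteins and 7 cargo receptors. The data were single-cell RNA-seq counts of CD31+ cells that had been bound to beads from the mesentery of C57BL/6 mice at postnatal day 8, with 1 library labelled control and 1 labelled KO. The KO library came from Flcn iΔEC mice, which carry floxed Flcn alleles and the tamoxifen-inducible Cdh5-BAC-CreERT2 transgene, active in blood and lymphatic endothelium, while the control label gives no genotype. Mice of both groups received 40 µg of 4-hydroxytamoxifen under the skin at postnatal days 2, 3.5, 5 and 6.5, and the cells of 3 mice per genotype were pooled, so that there was 1 sample per condition and no test between conditions could be made.

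Autophagy delivers cytoplasm to the lysosome in a double membrane, the autophagosome. The Ulk1 kinase complex starts the process, the Vps34 lipid kinase complex marks the membrane with phosphatidylinositol 3-phosphate, Atg2 and Atg9 proteins bring lipid, and a conjugation system joins the LC3 and GABARAP proteins, together the Atg8 family, to phosphatidylethanolamine. Cargo receptors such as p62, the product of Sqstm1, bind both the cargo and the Atg8 proteins. Folliculin, the product of Flcn, acts in the pathway by which mTORC1 keeps the transcription factors TFEB and TFE3 out of the nucleus, and many lysosomal and autophagy genes are known targets of these factors.

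The control library held 6814 cells and 64639756 unique molecular identifiers (UMIs), and the KO library 4459 cells and 60805779 UMIs. Cells with 2 or more UMIs of Cdh5 were taken as endothelial, 566 in the control and 892 in the KO library, and cells with none as non-endothelial. Both were divided by marker scores into lymphatic (LEC), venous (VEC), arterial (AEC), capillary and high endothelial venule (HEV)-like cells, and into T, B, innate lymphoid and NK, fibroblast and mural, and erythroid-like cells. LEC-like cells numbered 60 in the control and 326 in the KO library, VEC-like cells 100 and 182, AEC-like cells 113 and 148, capillary-like cells 140 and 51, and HEV-like cells 54 and 66. All markers of the LEC, AEC, capillary and HEV-like classes were highest in their own class in both libraries, whereas only 4 of 7 VEC markers in the control and 3 of 7 in the KO library were, the others being higher in HEV, capillary or LEC-like cells. Cells assigned by macrophage and dendritic markers were left undescribed because Ins1, Ins2 and Vip led that group, and mesothelial genes such as Msln and Wt1 were among the leading genes of the fibroblast and mural-like class. Other classes that were kept were not free of such genes. Sst, Pyy and Ppy led the innate lymphoid and NK-like class, and Defa24, Oit1, Spink4 and Serpina1e were among the leading genes of the HEV-like class.

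Each level below is the UMIs of a gene summed over the cells of a class, as counts per 1000000 UMIs of that class (CPM), with an exact 95% Poisson interval, and each ratio is KO over control with an exact conditional interval. These intervals cover counting error only, not the spread between mice. Genotype, sex and library could not be told apart, since the libraries also differed in Xist, with 9 UMIs in control cells and 63462 in KO cells. Flcn itself had 143 UMIs in control and 265 in KO endothelial cells, a ratio of 0.951 (0.773 to 1.17), and since a 3′ count need not lie in the deleted exons it gave no check of the label. All classes were read from the same pair of libraries, so that a ratio seen in several of them was not seen in independent samples.

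Promoter windows running from 250 bases before to 50 bases after the start were found in RefSeq (GRCm38.p6) for 33 members. The letters CACGTG, the E-box form bound by TFEB and TFE3 (a palindrome, so that both strands read alike), stood in 7.15% of all 32851 windows and in those of 5 members, Atg3, Atg5, Atg7, Atg14 and Bnip3. They also stood in the windows of Fnip1 and Rragc, whose products work with folliculin in the mTORC1 pathway and which are taken up again below. For Flcn, Rragd and Gpnmb, of the same list below, the search found no CACGTG, and whether each had a window is not given. Stretches of 30 bases around the E-box, which is in capitals, show that its flanks differed from gene to gene. Those of Atg7 and Atg14 are not shown, because their windows lie at RefSeq starts inside the gene spans of GENCODE vM21, away from the annotated gene start:
Atg3, chr16:45158723-45158752, plus strand: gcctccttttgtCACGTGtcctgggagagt
Atg3, chr16:45158746-45158775, plus strand: ggagagtcgagtCACGTGaggccttaggtg
Atg5, chr10:44268313-44268342, plus strand: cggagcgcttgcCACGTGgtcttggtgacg
Bnip3, chr7:138909597-138909626, minus strand: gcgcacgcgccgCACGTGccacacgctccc
Fnip1, chr11:54438092-54438121, plus strand: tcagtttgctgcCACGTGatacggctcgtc
Rragc, chr4:123917309-123917338, plus strand: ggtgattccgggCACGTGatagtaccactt

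No CACGTG was found for Sqstm1, Optn, Map1lc3b, Gabarap and Gabarapl1, the members described first below. Optn and Map1lc3b had windows, and whether Sqstm1, Gabarap and Gabarapl1 each had one is not given. A variant of the E-box, CATGTG, stood in 14.2% of all windows and, among members, in that of Atg2a alone. TGACNNNGC, the core of the antioxidant response element bound by NRF2, was searched on both strands and stood in 12.4% of all windows and in those of 5 members, Atg13, Map1lc3b, Tax1bp1, Ulk2 and Vmp1. The match of Map1lc3b, in capitals, began 5 bases into the transcript, and the 250 bases before the start of Optn, shown as a promoter of a gene with a high ratio, held none of the 3 motifs:
Map1lc3b, chr8:121590431-121590460, plus strand: cgcgagtcaccTGACTCGGCtgcggactga
Optn, chr2:5064118-5064367, minus strand: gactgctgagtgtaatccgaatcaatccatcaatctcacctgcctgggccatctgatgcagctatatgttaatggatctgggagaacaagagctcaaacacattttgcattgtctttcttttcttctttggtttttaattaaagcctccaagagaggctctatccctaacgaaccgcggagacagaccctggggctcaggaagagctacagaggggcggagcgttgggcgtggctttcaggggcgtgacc

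Most members differed little between the libraries, and the differences that stood out lay in a few genes of the Atg8 family and the cargo receptors. Of the 40 members, 8 were at least 1.5-fold higher in KO in at least 1 endothelial class, 9 were at least 1.5-fold lower and 23 were neither, among genes with 50 or more counts over both libraries. The share of all genes that passed in at least 1 class is not given here, so these counts cannot be set against it. Shares for each class follow below. Sqstm1, Optn, Map1lc3b, Gabarap and Gabarapl1 accounted for 20 of the 23 higher values over the 5 classes. For the 23 members that passed in neither direction, the log2 ratio, with 1 count added, lay between -0.54 and 0.52 in the 111 class values with enough counts.

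**Figure D1:**
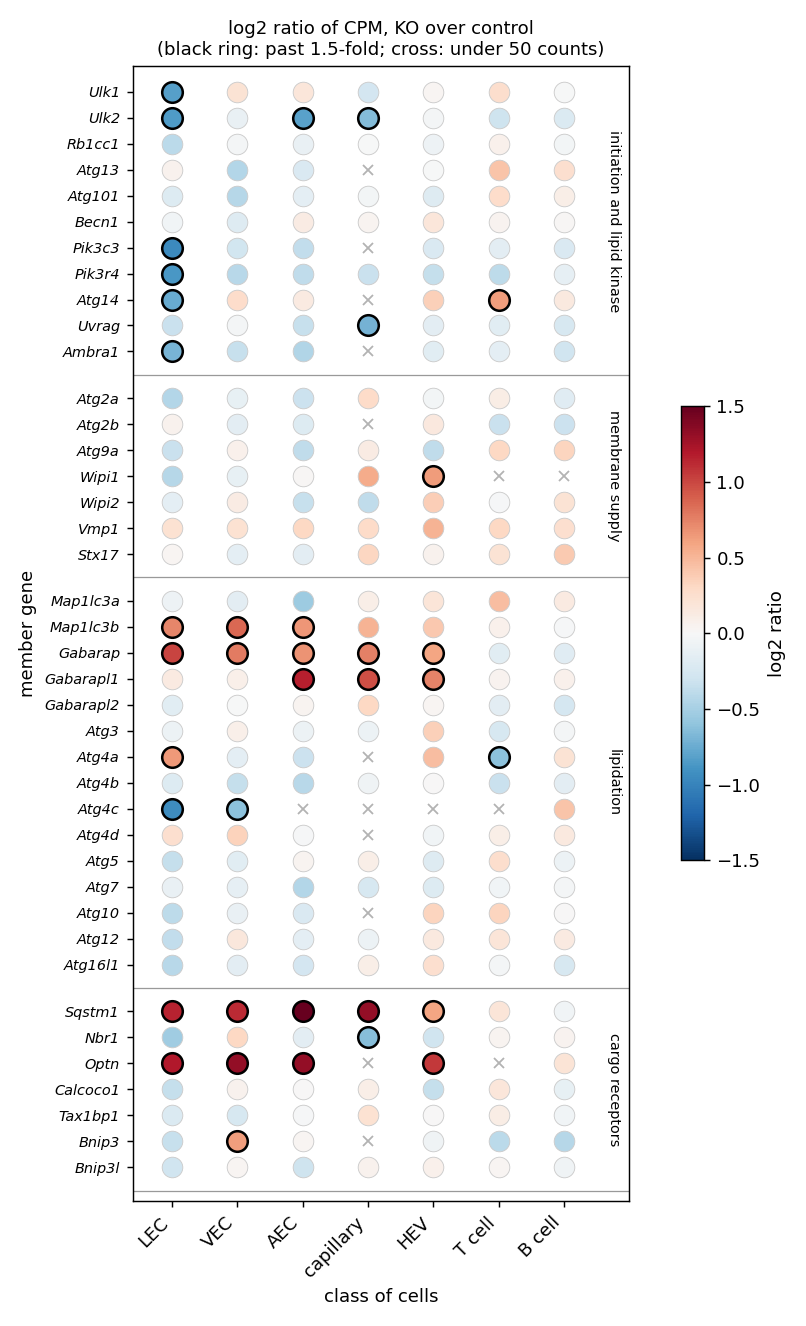
Each dot is the log2 ratio of CPM, KO over control, of 1 member (row, grouped by role) in 1 class of cells (column), with a black ring for ratios past 1.5-fold and a cross where both libraries held under 50 counts together. Rings fall mostly on Sqstm1, Optn, Map1lc3b, Gabarap and Gabarapl1 in red, and on 6 initiation genes in blue in LEC-like cells, while T and B-like cells carry 2 rings in all.

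In LEC-like cells 5 of 40 members were higher and 7 lower in KO, beside 8.07% higher and 22.2% lower of all 9989 genes with enough counts. In VEC-like cells 5 of 40 were higher and 1 lower, against 7.51% and 13.5% of all genes. In AEC-like cells 5 of 39 were higher and 1 lower, against 6.39% and 14.7%. The share of members higher was thus 12.5% or 12.8% in these classes, above that of all genes, while the share lower was under it. In capillary-like cells 3 of 29 were higher and 3 lower, against 7.14% and 11.6%, and in HEV-like cells 5 of 39 were higher and none lower, against 8.92% and 6.85%. In T-like cells 1 of 37 was higher and 1 lower, where 4.48% and 5.07% of all genes were, and in B-like cells none of 39 was either, where 5.38% and 5.42% of all genes were.

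The medians over the members followed those of all genes. The median log2 ratio of the members was -0.26 in LEC-like cells, where that of all genes was -0.21. It was -0.07 in VEC-like cells, where all genes gave -0.07, and -0.15 in AEC-like cells, where all genes gave -0.14. The members as a whole sat close to the other genes, and the LEC-like and AEC-like ratios are to be read against a general shift below 0. In capillary-like cells the members' median was 0.10 and that of all genes -0.05, and in HEV-like cells the values were 0.03 and 0.01.

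**Figure D2:**
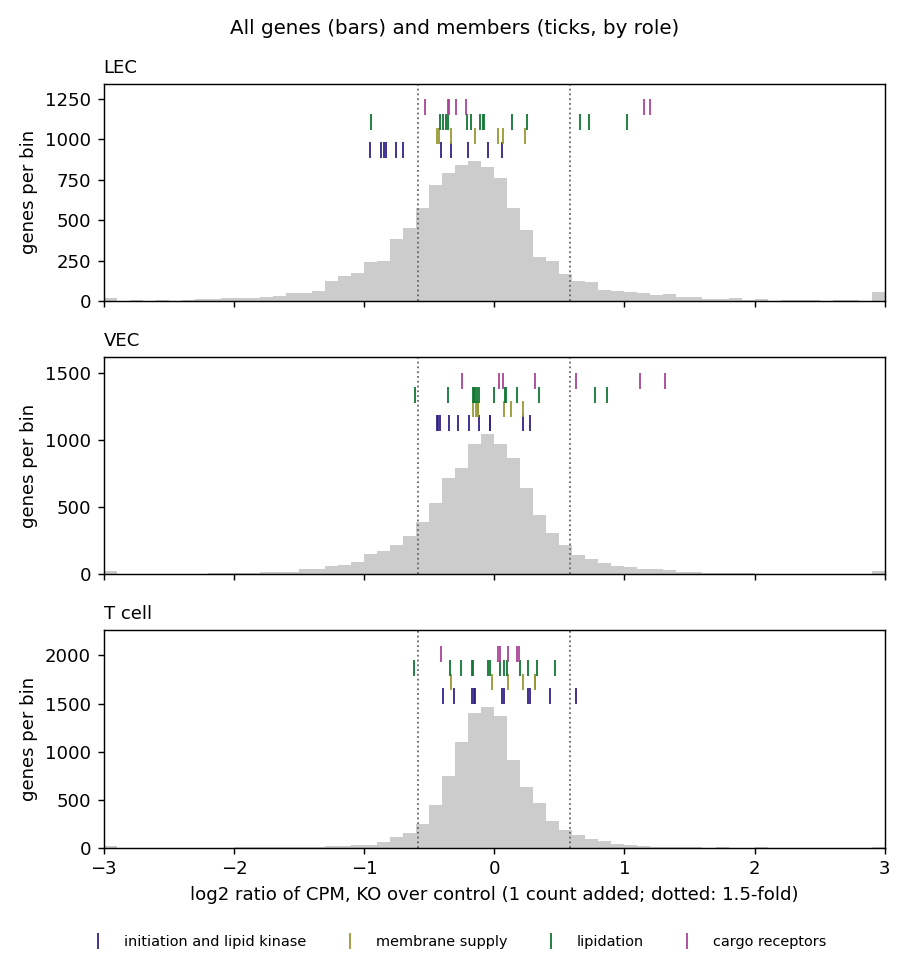
Grey bars count all genes by their log2 ratio of CPM, KO over control, in LEC, VEC and T-like cells, values past 3 being placed in the end bins, and ticks above them mark the members by role, with dotted lines at 1.5-fold. In LEC-like cells 6 of the 11 initiation genes lie to the left of the dotted lines and the others between them. To the right lie 5 members of the lipidation and cargo groups, whereas the ticks of T-like cells stay almost entirely between the lines.

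Among the genes of the lipidation step, Gabarap was past 1.5-fold higher in KO in all 5 endothelial classes and Map1lc3b in 3. Gabarap (ENSMUSG00000018567, chr11:69991143-69994951, mm10), whose product acts late in autophagosome formation, stood in LEC-like cells at 479 CPM in control (444 to 517) and 972 in KO (952 to 992). The ratio was 2.03 (1.88 to 2.20) there, 1.71 (1.61 to 1.82) in VEC-like, 1.60 (1.49 to 1.71) in AEC-like, 1.68 (1.52 to 1.86) in capillary-like and 1.51 (1.41 to 1.62) in HEV-like cells. In none of the 5 classes did the intervals of the 2 libraries overlap. In T-like cells Gabarap went the other way, from 190.5 CPM in control to 169 in KO, a ratio of 0.889 (0.838 to 0.942), and in B-like cells the ratio was 0.88 (0.845 to 0.917).

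Map1lc3b (ENSMUSG00000031812, chr8:121590361-121598760), which encodes LC3B, the usual marker of autophagosomes, was at 521 CPM in control (484 to 560) and 865 in KO LEC-like cells (846 to 884). In VEC-like cells it was at 377 CPM in control (354 to 400.4) and 686 in KO (665 to 708), a ratio of 1.82 (1.70 to 1.95). The ratio was 1.66 (1.54 to 1.79) in LEC-like and 1.58 (1.47 to 1.70) in AEC-like cells. Capillary-like and HEV-like cells, at 1.44 (1.29 to 1.60) and 1.32 (1.21 to 1.44), stayed under 1.5-fold. In T-like and B-like cells the ratios were 1.06 (1.004 to 1.11) and 0.984 (0.943 to 1.03). The span of Map1lc3b is overlapped on the same strand by Gm20388 in GENCODE vM21, and how reads common to both were assigned is not given in the sources used here.

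Gabarapl1 (ENSMUSG00000030161, chr6:129533160-129542346), a close relative of Gabarap, differed between classes both in level and in ratio. In the control library it was highest in VEC-like cells, at 156 CPM (141 to 171), above LEC-like cells at 58.8 (46.9 to 72.9). AEC-like cells at 48.3 (39.4 to 58.6), capillary-like cells at 41.1 (33.2 to 50.3) and HEV-like cells at 33.9 (27.5 to 41.3) followed, with intervals that overlapped from each to the next. In KO it was at 166 CPM in VEC-like cells (156 to 177), a ratio of 1.07 (0.952 to 1.20), and at 65.3 in LEC-like cells (60.2 to 70.7), a ratio of 1.11 (0.882 to 1.41). In AEC-like cells it was at 109.5 CPM (99.2 to 121), a ratio of 2.27 (1.82 to 2.85), and in capillary-like cells at 80.6 (64.5 to 99.6), a ratio of 1.96 (1.45 to 2.65). HEV-like cells gave 57.0 CPM and a ratio of 1.68 (1.32 to 2.16). AEC, capillary and HEV-like cells thus had the higher ratios, and the intervals of the AEC-like ratio and the VEC-like ratio did not overlap. No link with the control level was read from this. That level is the denominator of the ratio, and the LEC-like and AEC-like intervals overlapped in control.

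**Figure D3:**
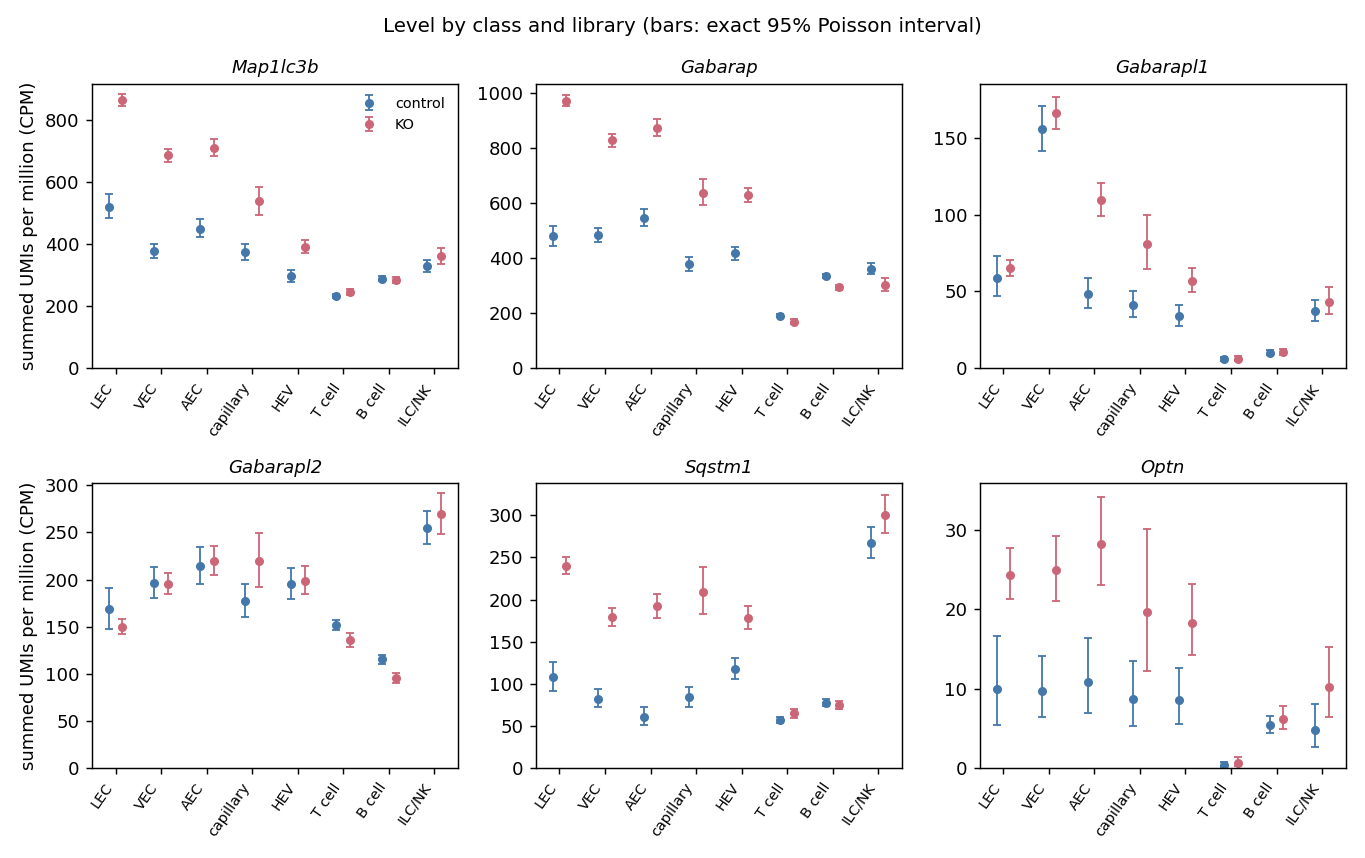
CPM of 4 Atg8 genes and 2 cargo receptors (vertical axes, from 0) in 5 endothelial and 3 lymphoid classes, control in blue and KO in red, with exact 95% Poisson intervals as bars. For Gabarap, Map1lc3b and Sqstm1 the KO points lie clear of the control points in all 5 endothelial classes, Gabarapl2 shows no such gap, and in T and B-like cells the points of both libraries lie close together.

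The other Atg8 genes showed no such difference. Gabarapl2, which encodes GATE-16, was at 169 CPM in control (148 to 192) and 149.9 in KO LEC-like cells (142 to 158), and its ratio over the 5 classes ran from 0.888 in LEC-like to 1.24 in capillary-like cells. Map1lc3a, which encodes LC3A, was at 178 CPM in control (161 to 197) and 122 in KO AEC-like cells (111 to 134). That ratio, 0.687 (0.598 to 0.79), just missed 1.5-fold, and the others ran from 0.90 in VEC-like to 1.14 in HEV-like cells. In AEC-like cells the family was therefore uneven, with Map1lc3a lower and Gabarapl1 higher in KO.

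The enzymes of the conjugation step, Atg3, Atg5, Atg7, Atg10, Atg12 and Atg16l1, passed 1.5-fold in no endothelial class, and neither did the proteases Atg4b and Atg4d. Atg7, the activating enzyme, was at 36.8 CPM in control and 34.6 in KO LEC-like cells, and its ratio in all endothelial cells was 1.004. Atg4a and Atg4c passed only with ratios whose intervals held 1. Atg4a had 8 counts in control and 93 in KO LEC-like cells, a ratio of 1.75 (0.854 to 4.18). Atg4c had 15 and 54, a ratio of 0.543 (0.302 to 1.04). Atg3 and Atg5, whose windows held the E-box shown above, were therefore among the members that differed little between the libraries.

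Among the cargo receptors, Sqstm1 was past 1.5-fold higher in all 5 endothelial classes and Optn in the 4 in which it had enough counts. Sqstm1 (ENSMUSG00000015837, chr11:50199366-50210827) had its highest ratio in AEC-like cells, where it stood at 61.1 CPM in control (51.0 to 72.6) and 192 in KO (178 to 207), a ratio of 3.15 (2.61 to 3.83). In LEC-like cells it was at 108 CPM in control (91.3 to 126) and 240.3 in KO (230.4 to 250.4), a ratio of 2.23 (1.89 to 2.65). In VEC-like cells it was at 82.3 CPM in control and 179 in KO, a ratio of 2.18 (1.89 to 2.52). Capillary-like cells gave 2.49 (2.04 to 3.03) and HEV-like cells 1.51 (1.33 to 1.73), and no endothelial class had overlapping intervals. In control the AEC-like cells held the least Sqstm1 and the HEV-like cells the most, 118 CPM (106 to 131), although neighbours in this order overlapped, and in KO the 5 classes lay between 178.5 and 240.3 CPM. With each class centred on the median of all genes, Sqstm1 and Gabarap no longer passed 1.5-fold in HEV-like cells. Lymphoid cells gave ratios of 1.14 (1.03 to 1.26) in T-like, 0.966 (0.889 to 1.05) in B-like and 1.13 (1.02 to 1.25) in innate lymphoid and NK-like cells, although the last of these held more Sqstm1 than any endothelial class, at 267 CPM in control (249 to 286) and 301 in KO (279 to 324).

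Optn (ENSMUSG00000026672, chr2:5020642-5064051), which encodes optineurin, a receptor for ubiquitin-tagged mitochondria and bacteria, was a low gene with a similar ratio in all classes. It had 14 counts in control and 227 in KO LEC-like cells, or 9.92 CPM (5.42 to 16.7) and 24.3 (21.2 to 27.6), a ratio of 2.45 (1.43 to 4.55). VEC-like cells gave 2.56 (1.69 to 4.02), AEC-like cells 2.59 (1.64 to 4.26) and HEV-like cells 2.14 (1.33 to 3.53). Capillary-like cells gave 2.25 (1.16 to 4.37) from 20 and 21 counts, under the minimum of 50. Over all endothelial cells Optn went from 8.96 CPM (7.46 to 10.7) to 24.1 (22.3 to 26.0). In B-like cells the ratio was 1.15 (0.844 to 1.56), and T-like cells held only 8 and 6 counts.

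The other receptors followed neither of these. Bnip3, a receptor on mitochondria known for its response to low oxygen, had 32 counts in control and 108 in KO VEC-like cells, a ratio of 1.58 (1.06 to 2.42), but 1.04 (0.676 to 1.61) in AEC-like cells. Nbr1, which works beside p62, was lower in capillary-like cells, with a ratio of 0.627 (0.406 to 0.943), and lay at 1.25 (0.995 to 1.58) in VEC-like cells. Tax1bp1, Calcoco1 and Bnip3l passed 1.5-fold in no class.

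Several genes of initiation and of the lipid kinase were lower in KO. Among the endothelial classes 5 of them were past 1.5-fold in LEC-like cells alone, and the difference between classes was not tested. Of the 11, 6 were past 1.5-fold lower there, in a class where 22.2% of all genes were, and the median log2 ratio of the 11 was -0.70 against -0.21 for all genes. Ulk1, the kinase that starts autophagy, was at 34.0 CPM in control (25.1 to 45.1) and 19.4 in KO LEC-like cells (16.7 to 22.5), a ratio of 0.572 (0.414 to 0.803). Ulk2, its paralogue, was at 40.4 CPM in control and 22.8 in KO, a ratio of 0.564 (0.419 to 0.769). Pik3c3, the Vps34 kinase itself, had a ratio of 0.528 (0.344 to 0.835), its partner Pik3r4 one of 0.559 (0.373 to 0.861), and Atg14, which directs the complex to autophagy, one of 0.609 (0.399 to 0.957). The sixth, Ambra1, had a ratio of 0.633 with an interval that held 1 (0.406 to 1.02). These are small counts in the control library, 28 for Pik3c3, 28 for Atg14 and 31 for Pik3r4, from 60 cells.

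In the other endothelial classes only Ulk2 and Uvrag passed in this group. In T-like cells Atg14 was higher in KO, at 1.54 (1.20 to 1.985). In innate lymphoid and NK-like cells Pik3c3 was lower in KO, with 50 and 20 counts and a ratio of 0.547 (0.308 to 0.9355). Atg14 was higher in those cells, at 1.88 (1.245 to 2.85). Ulk2 was also lower in AEC-like cells, from 35.05 CPM to 19.9, a ratio of 0.567 (0.405 to 0.793), and in capillary-like cells, at 0.619 (0.376 to 0.986), but lay at 0.98 in HEV-like and 0.93 in VEC-like cells. Uvrag, a partner of the lipid kinase in endosome traffic, was at 104 CPM in control and 62.8 in KO capillary-like cells, a ratio of 0.606 (0.455 to 0.797). Becn1, which encodes Beclin 1, stayed between 0.88 in VEC-like and 1.13 in HEV-like cells. With each class centred on the median of all genes, Ambra1 and Atg14 no longer passed in LEC-like cells, while Ulk1, Ulk2, Pik3c3 and Pik3r4 did. With classes taken from Leiden clusters instead of marker scores, 3 members in place of 7 were lower in LEC-like cells.

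The makeup of the LEC-like and VEC-like classes differed between the libraries, and its part in these ratios was not tested. Mki67, a marker of dividing cells, was at 117 CPM in control and 52.5 in KO LEC-like cells, and at 122 and 38.1 in AEC-like cells. Ptprc, the leukocyte marker CD45, was at 81.6 CPM in control and 32.4 in KO endothelial cells. In VEC-like cells Prox1, the lymphatic transcription factor, was at 52.1 CPM in control and 199 in KO. In VEC-like cells with under 3 Prox1 UMIs, 81 in control and 113 in KO, Sqstm1 had a ratio of 1.91 (1.61 to 2.28), Map1lc3b one of 1.63 (1.503 to 1.78) and Gabarap one of 1.54 (1.43 to 1.66). In LEC-like cells with Lyve1 at 3 or more per 10000 UMIs, 35 in control and 115 in KO, these ratios were 1.84 (1.48 to 2.31), 1.52 (1.38 to 1.68) and 1.82 (1.64 to 2.02), so all of them were above 1.5 in these subsets. Pik3r4 had a ratio of 0.351 (0.195 to 0.643) in that Lyve1 subset and 0.805 (0.417 to 1.74) in the other LEC-like cells, and Gabarapl1 had ratios of 1.59 (1.14 to 2.28) and 0.764 (0.555 to 1.075).

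Of the 7 genes of membrane supply only Wipi1 passed 1.5-fold, in HEV-like cells. Atg2a, Atg2b, Atg9a, Wipi2, Vmp1 and Stx17 passed 1.5-fold in no endothelial class. Vmp1, a lipid scramblase of the endoplasmic reticulum, was above 1 in all 5 classes, from 1.17 (0.977 to 1.41) in VEC-like to 1.44 (1.19 to 1.76) in HEV-like cells. The same held in T-like cells, at 1.24 (1.10 to 1.395), and in B-like cells, at 1.19 (1.065 to 1.33). Wipi1, which reads the lipid mark of the Vps34 complex, had ratios on both sides of 1. It was at 95.7 CPM in control (80.2 to 113) and 71.6 in KO LEC-like cells (66.3 to 77.3), and at 20.5 in control (15.7 to 26.4) and 32.2 in KO HEV-like cells (26.7 to 38.6), so that the spread between classes seen in control was narrower in KO.

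The change in endothelial cells was then set against that in T and B-like cells of the same libraries, which share the library and held no Cdh5 UMI. For each gene the endothelial ratio was divided by the ratio in T and B-like cells together. Among the 40 members 4 were at least 1.5 by this measure, where 6.87% of all 10708 genes were, and 2 were at most 1/1.5, where 14.4% of all genes were. The 4 were Sqstm1 at 2.16 (1.98 to 2.35), Gabarap at 1.97 (1.89 to 2.06), Optn at 1.92 (1.36 to 2.71) and Map1lc3b at 1.75 (1.67 to 1.82). The 2 low genes were Atg13 at 0.608 (0.47 to 0.787) and Atg4c at 0.496 (0.284 to 0.868). Both parts entered these values. For Atg13 the endothelial ratio was 0.762 and that in T and B-like cells 1.25. For Atg4c they were 0.772 and 1.56, the latter from 35 counts in control and 30 in KO. Atg13 passed 1.5-fold in no single endothelial class, its ratios running from 0.744 to 1.13 in the classes with enough counts. The median over the members was 0.90 and that over all genes 0.96. The endothelial ratio pools all classes, whose mix differed between the libraries. LEC-like cells held 1411037 of 13956271 endothelial UMIs in control and 9355806 of 27210373 in KO. The part of this mix in ratios over all endothelial cells, here and elsewhere, was not tested.

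The share of cells with a UMI was compared for Sqstm1, Optn, Map1lc3b, Gabarap and Gabarapl1. Each cell was thinned to 2000 UMIs, leaving out at most 3 cells of an endothelial class, and exact Clopper-Pearson intervals were used. A UMI of Gabarap was found in 63.3% of control (49.9 to 75.4) and 85.9% of KO LEC-like cells (81.6 to 89.5), and in 56% of control (45.7 to 65.9) and 80.2% of KO VEC-like cells (73.7 to 85.7). Sqstm1 was found in 15% of control (7.10 to 26.6) and 36.8% of KO LEC-like cells (31.6 to 42.3), and in 12.5% (7.005 to 20.1) and 31.8% (24.4 to 39.9) of AEC-like cells. In T-like cells Sqstm1 was found in 10.3% of control (9.13 to 11.5) and 13.2% of KO cells (11.3 to 15.3), and in B-like cells in 14.9% (13.5 to 16.4) and 15.05% (13.2 to 17.1). For Sqstm1 only the KO shares of LEC-like and AEC-like cells thus lay clear of their own control and of T and B-like cells, innate lymphoid and NK-like cells not being included. Shares of the lower genes did not follow the CPM in every class: Gabarapl1 was found in 16.7% of control and 11.04% of KO LEC-like cells, and Optn in 5.66% of control and 3.03% of KO HEV-like cells. Optn was also found in fewer KO cells in VEC-like (4% and 3.3%) and capillary-like cells (2.92% and 2.04%). It was found in more KO cells in LEC-like (1.67% and 8.59%) and AEC-like cells (2.68% and 5.4%). All these intervals overlapped between the libraries, and no order was read from them. Without thinning, at a median of 17206 UMIs per control and 24584.5 per KO cell, Sqstm1 was found in 76.7% and 98.5% of LEC-like cells.

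Other genes of the pathway were followed through a list of 26, of which 24 were among the genes of the tables. In LEC-like cells 1 of the 22 with enough counts was higher and 4 lower, in VEC-like cells 2 and 2 of 23, in AEC-like cells 1 and 3 of 21, in capillary-like cells 7 and 0 of 19, and in HEV-like cells 3 and 1 of 21. The shares of all genes higher and lower were 8.07% and 22.2% in LEC-like, 7.51% and 13.5% in VEC-like, 6.39% and 14.7% in AEC-like, 7.14% and 11.6% in capillary-like and 8.92% and 6.85% in HEV-like cells, and these hold for the lists that follow as well. Tex264, a receptor for the endoplasmic reticulum, was higher in 4 of the 5 classes, with a ratio of 1.61 (1.46 to 1.77) in all endothelial cells and of 0.536 (0.426 to 0.669) in B-like cells. Rab7, the small GTPase of late endosomes, went from 149 to 217 CPM in all endothelial cells, a ratio of 1.46 (1.39 to 1.53). Tollip, a ubiquitin-binding adaptor, had a ratio of 1.47 (1.30 to 1.68).

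The remaining lists were short and were chosen with earlier results of these data known, so that their counts are descriptions. Among the MiT/TFE target genes, those under TFEB, TFE3 and their relatives, 4 of 6 were higher in LEC-like, 5 of 6 in VEC-like, 3 of 4 in AEC-like, 3 of 3 in capillary-like and 4 of 5 in HEV-like cells. Rragc, a Rag GTPase, had a ratio of 2.55 (2.34 to 2.79) and Fnip1, a partner of folliculin, one of 1.99 (1.73 to 2.28) in all endothelial cells, and both held the E-box shown above. Rragd went from 22 to 642 counts, a ratio of 14.97 (9.80 to 24.1), and Gpnmb, a lysosomal glycoprotein, from 4 to 1438 counts. No CACGTG was found for Rragd or Gpnmb. Since it is not given whether either had a window, the E-box could not be set against the largest ratios of this list. Among the members, Sqstm1 at 2.29 (2.15 to 2.43) and Optn at 2.69 (2.22 to 3.29) had ratios of similar size to that of Rragc, and all 40 were below Rragd. Of the NRF2 target genes, which answer oxidative stress and of which Sqstm1 is also known to be one, 3 of 6 were higher in LEC-like and 4 of 6 in VEC-like cells. In AEC-like cells 2 of 5 were higher, in capillary-like cells 1 of 4 and in HEV-like cells 1 of 4. Nqo1 went from 18.3 to 84.4 CPM in all endothelial cells. Of the hypoxia genes, of which 3 to 5 had enough counts, at most 1 in any endothelial class was higher, and Egln3 was lower in LEC-like cells.

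Between cell types, several members differed by more than they did between libraries. Wipi1 was at 47.8 CPM in control (44.2 to 51.6) and 56.4 in KO endothelial cells (53.6 to 59.3), but at 0.572 (0.296 to 0.999) and 0.969 (0.443 to 1.84) in T-like cells, an endothelial level 83.5 times higher in control and 58.2 times higher in KO. Fibroblast and mural-like cells held still more of it, at 81.7 CPM (60.5 to 108) in control and 156 (124 to 193) in KO. Gabarapl1 was at 69.4 CPM in control endothelial and 6.10 in T-like cells, 11.4 times higher, and at 94.6 and 6.25 in KO, 15.1 times higher. Optn was at 8.96 CPM in control endothelial and 0.381 in T-like cells, and at 24.1 and 0.646 in KO. Atg4c, at 6.09 and 4.70 CPM in endothelial cells, had only 4 counts in control and 2 in KO T-like cells, with ratios of 31.9 (12.03 to 119.9) and 21.8 (5.92 to 182). With these, 6 of 40 members were at least 3 times higher than in T-like cells in both libraries, where 26.8% of all 13462 genes were. Map1lc3a, 4.62 and 3.12 times higher, and Bnip3, 3.61 and 5.25 times higher, no longer passed 3-fold in both libraries with mitochondrial, ribosomal protein and hemoglobin genes left out of the total. Map1lc3a was highest in fibroblast and mural-like cells, at 217 CPM (181 to 258) in control and 249.8 (209 to 297) in KO, above endothelial cells at 111 (106 to 117) and 104 (99.9 to 107.5). No member was 3 times lower in endothelial than in T, B, innate lymphoid and NK or fibroblast and mural-like cells in both libraries.

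Erythroid-like cells, 58 in control and 127 in KO, differed from all others. Bnip3l, which encodes NIX, the receptor through which maturing red cells clear their mitochondria, was at 591 CPM in control (527 to 661) and 469.9 in KO (427 to 517), above endothelial cells at 235 and 212. Gabarapl2 was at 341 CPM (293 to 395) and 331 (295 to 370.3), above innate lymphoid and NK-like cells, the next highest, at 255 (237 to 273) and 269.8 (249 to 292). Most of the machinery was low in these cells by CPM: 26 of the 40 members were at least 3 times higher in endothelial cells in both libraries, where 72.4% of all 12852 genes were. That count rests on the scale, since hemoglobin genes took 79.1% of the UMIs of control and 74.2% of those of KO erythroid-like cells. With mitochondrial, ribosomal protein and hemoglobin genes left out of the total, 2 members, Gabarapl1 and Bnip3, were at least 3 times higher in endothelial and 3, Gabarapl2, Atg4a and Bnip3l, at least 3 times higher in erythroid-like cells, where 20.1% and 3.09% of all genes were. Gabarapl1 had 0 counts in control and 4 in KO erythroid-like cells, and Bnip3 was at 0 in both libraries. At this depth the higher endothelial level of these 2 is not well founded. Median UMIs per erythroid-like cell were 10353 in control and 1915 in KO.

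**Figure D4:**
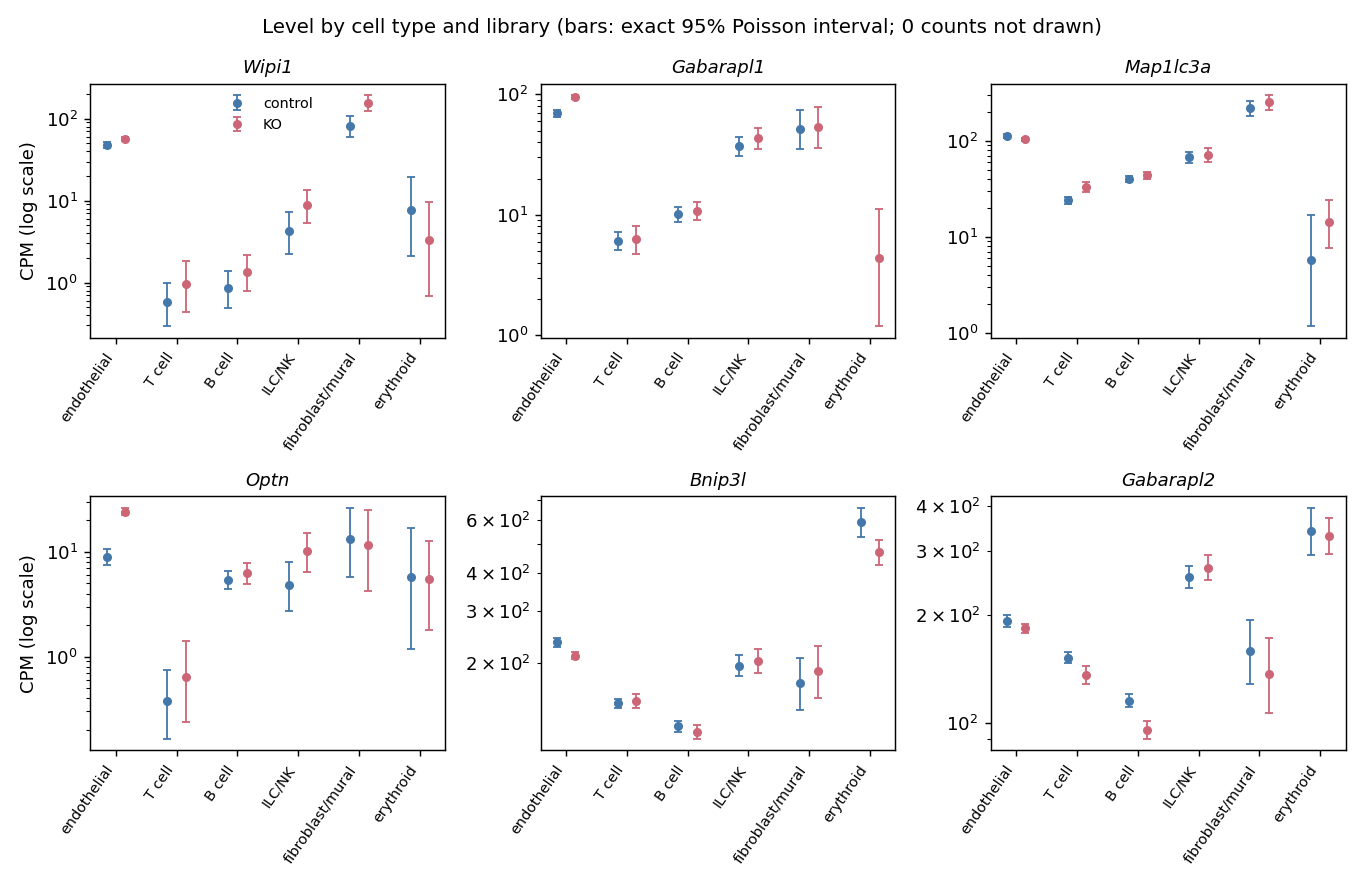
CPM on a log axis of 6 members in all endothelial cells and in 5 classes of non-endothelial cells, control in blue and KO in red, with exact 95% Poisson intervals as bars and no point where a library held no count. Wipi1, Gabarapl1 and Optn are lowest in T-like or erythroid-like cells, and Bnip3l and Gabarapl2 are highest in erythroid-like cells in both libraries.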

How the data were processed

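Single-cell RNA-seq counts of mesenteric CD31+ cells were analysed in 2 libraries, control and KO, each pooled from 3 mice. Per the labels the authors used Chromium 3′ v3 libraries and Cell Ranger 3.0 with genome mm10, and the deposited values are raw counts of UMIs per gene and cell. The annotation and the setting for reads on overlapping genes are not given in the sources used here. No control cell held fewer than 502 UMIs and no KO cell fewer than 500, and 6 barcodes occurred in both tables. Doublets were not called. Leaving out endothelial cells with a Ptprc UMI was an alternative.

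Marker genes were taken as log counts per 10000, z-scored and held to at most 3, and a cell took the class with the highest mean score if that was above 0 and 0.25 above the next. Unassigned endothelial cells (99 in control, 119 in KO) entered only the sums over all endothelial cells, and cells with 1 Cdh5 UMI (164 and 137) and classes under 20 cells were left out. Counts were summed per class and library. With 1 library per condition no test was made, and a gene was called higher or lower past 1.5-fold with 50 or more summed counts, after adding 1 count. The ratio of ratios has a log-normal interval and needed 5 counts in each group. Full values are given for Sqstm1, the 5 Atg8 genes, members past 1.5-fold with an interval that left out 1, and examples of members past 3-fold between endothelial and other cells. The members, lists and markers were chosen with earlier results of these data known. All 40 gene identifiers were found in GENCODE vM21, whose build (GRCm38) is mm10. Python 3.11.15, numpy 2.4.6, scipy 1.17.1, pandas 2.3.3 and scanpy 1.11.5 were used, and the steps were tested on simulated data. Alternatives were another total for CPM, filters on cells, Cdh5 minimums of 1 and 3, margins of 0 and 0.5, Leiden clusters, equal weight per cell, count minimums of 20 and 100, a 2-fold limit, thinning to 5000 UMIs and, chosen after seeing the data, centring on the median of all genes, leaving out cycling cells, and splits by Prox1 and Lyve1.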

Additional observations from a re-analysis of the deposited data

How the results depend on the processing

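No paired analysis was possible because each condition had 1 library. The 5 genes with the most higher values kept their direction in LEC-like, VEC-like and AEC-like cells under the 11 alternatives run, apart from Gabarapl1 in LEC-like and VEC-like cells, where it had passed no limit. Sqstm1 ran from 2.21 to 2.84 in LEC-like and from 2.59 to 3.45 in AEC-like cells, Gabarap from 1.995 to 2.34 in LEC-like and from 1.65 to 1.80 in VEC-like cells, and Map1lc3b from 1.71 to 1.92 in VEC-like cells. HEV-like Sqstm1 ran from 1.32 to 3.32, under 1.5 without cycling cells, and HEV-like Gabarap from 1.399 to 2.09, under 1.5 with Leiden clusters. In LEC-like cells Atg14 was 0.837 with Leiden clusters. Of 880 gene ratios 838 stayed within their counting interval and 42 did not.

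The counts of members were more easily moved. With mitochondrial, ribosomal and hemoglobin genes left out of the total, 0 were lower in VEC-like and 3 higher in HEV-like cells. Keeping cells with at least 1000 UMIs and at most 10% mitochondrial left 3 higher in HEV-like cells. Without endothelial cells with a Ptprc UMI, 2 were lower in AEC-like cells, 5 higher and 1 lower in capillary-like cells, and the HEV-like median was 0.21. With no margin 5 were higher and 1 lower in capillary-like cells, and with a margin of 0.5 the capillary-like median was -0.0052. Leiden clusters gave 3 lower in each of LEC-like, VEC-like and AEC-like cells, 1 higher in HEV-like cells, and medians of -0.12 in LEC-like and -0.024 in capillary-like cells. Equal weight per cell gave 2 lower in VEC-like, 4 in AEC-like and 3 in HEV-like cells, and a capillary-like median of -0.0014. A minimum of 20 counts gave 5 higher in capillary-like cells, and one of 100 gave 0 lower in VEC-like cells. A 2-fold limit left 3 higher and 0 lower in LEC-like, 2 and 0 in VEC-like, 3 and 0 in AEC-like, 1 and 0 in capillary-like, and 1 higher in HEV-like cells. Centring gave medians of -0.0505 in LEC-like and -0.0097 in AEC-like cells, 0 lower in VEC-like and 3 higher in HEV-like cells. Without cycling cells 3 were lower in VEC-like cells and the HEV-like median was 0.18. The cause of these shifts was not tested. Shares of all genes under these alternatives are not given here, so the counts show only how the calls of members moved. Against the mean of the named non-endothelial classes, control Optn turned from higher to lower in endothelial cells (log2 ratio -0.29). Depth limits capillary-like cells most, where 29 of 40 members had enough counts.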

Other observations

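In endothelial cells that no marker list claimed, 99 in control and 119 in KO, which are part of the sums over all endothelial cells, Sqstm1 was at 93.7 CPM in control and 228 in KO, a ratio of 2.435 (2.10 to 2.83), Gabarap had a ratio of 1.63 (1.51 to 1.75) and Map1lc3b one of 1.615 (1.495 to 1.75). In cells with 1 Cdh5 UMI, which are part of no comparison and held Ptprc, the leukocyte marker CD45, at 452 CPM in control and 246 in KO, Gabarap had a ratio of 0.966 (0.851 to 1.10), Map1lc3b one of 1.03 (0.897 to 1.18) and Sqstm1 one of 1.45 (1.11 to 1.92).

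In fibroblast and mural-like cells, 53 in control and 43 in KO, Wipi1 had 49 counts in control and 81 in KO, a ratio of 1.90 (1.32 to 2.77), while Sqstm1 had one of 1.17 (0.794 to 1.73). Hmox1 was higher in KO in B-like cells too, with 21 and 36 counts and a ratio of 2.55 (1.45 to 4.60), unlike Sqstm1 there.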
